A study of Mus musculus with 20 samples.

Results

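Bisphenol A (BPA), a building block of polycarbonate plastics that binds estrogen receptor α, was given once to ovariectomized mice, and the uterine transcripts found 24 h after the injection were compared with those found at 2 h. The comparison used the 6 arrays whose titles name uterus and BPA, 3 collected at 2 h and 3 at 24 h, of 20 arrays in the series, and no vehicle array entered it. Both groups were adult female C57bl6/J mice of 10 weeks or older that had been ovariectomized, rested for 10 to 14 days and injected under the skin with 750 µg BPA in sesame oil. As far as the labels tell, the groups differed only in the interval between injection and collection. In the labels of the treated arrays the entries for time and treatment stand under each other's heading, and the titles, which match the entries, gave the groups. Arrays of other treatments are used for reference. The vehicle group (3 arrays, sesame oil, labelled 24 h) gives the level without a test compound. HPTE, the compound that the liver makes from the insecticide methoxychlor and that itself binds estrogen receptors, was given at the same 750 µg (3 arrays at each time), and estradiol (E2) was given at 250 ng (3 arrays at 2 h and 2 at 24 h). A vehicle group collected at 2 h was not analysed here, and the hour of the day of each collection is not given in the sources used here, so time after BPA and time of day cannot be told apart.

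An estrogen reaches the uterus of an ovariectomized mouse as a single pulse, and the tissue answers in phases. Receptor-bound genes and immediate early genes, which need no new protein to be transcribed, come first, followed by growth factors, ribosome production and fluid uptake, and later by DNA synthesis and division of the epithelium. Shorter-acting or weaker ligands are known for giving the early phase in full and sustaining the late phase less, which makes the step from early to late a place where estrogens can be told apart.

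Levels are given as log2 of the processed intensity of a probe minus the log2 75th percentile of its array, so a level of 0 is as bright as that percentile, and a difference is the mean level at 24 h minus that at 2 h. The test took in 31229 of 41174 probes, those that at least one group showed well above background on all of its 3 arrays. By limma with Benjamini-Hochberg adjustment (threshold 0.05), 14107 probes differed between the times, 45.2% of those tested, of which 8030 were higher at 24 h (25.7%) and 6077 lower (19.5%). The arrays of the times did not overlap for 18461 probes (59.1%). With 1 probe per gene, the brightest, 5681 of 20596 genes were higher (27.6%) and 3594 were lower (17.4%), and the median difference over genes was 0.09. The changes were unequal in size. A difference of at least 2-fold was met by 2158 higher and 1570 lower probes, and one of at least 4-fold by 290 higher and 355 lower. The split by direction depended on the scaling: 56.9% of calls were higher as given here, 51.9% with quantile normalization, 37.1% without scaling and 33.2% when arrays were scaled to their spike-in controls. In the latter pair the median of all probes moved from 0.06 to -0.12 and to -0.15. A gene list is therefore read against the shares over all genes, and list directions that turned with the scaling are named as such.

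The arrays of a group correlated with r between 0.978 and 0.991 across probes and those of different groups with r between 0.949 and 0.974. On the first principal component, which held 67.6% of the variance, BPA 2 h replicate 3 lay at -25.5, apart from the other 2 h arrays at -85.8 and -85.7, while the 24 h arrays lay between 54.4 and 74.1. Of 395 called members of the gene lists below, 222 had that array as the 2 h array nearest to the 24 h mean. Without it 15352 probes were called, and without BPA 24 h replicate 1 the count fell to 9068 (4857 higher, 4211 lower), the lowest of the 6 counts with 1 array left out. The arrays were spread over several slides, of which 1 held an array of each time. With the slide as a fixed block 12211 probes were called, and with the day of scanning as a block 14776. The later scan day held only 24 h arrays, BPA 24 h replicate 3 and HPTE 24 h replicate 2. That block therefore rests on 24 h arrays alone. With the earlier day only, which leaves out BPA 24 h replicate 3, 10007 probes were called. Labels name the arrays of a group as separate replicates of a uterus each, so p values measure the spread between these 6 arrays. The paper's methods describe RNA from pooled tissue, so reading this as spread between animals rests on the labels.

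Immediate early genes were the list with the largest share of lower members. Of 21 tested, 20 were lower at 24 h and none was higher, with a median difference of -2.42, and between 19 and 20 were called without each array in turn. On the slide that held both times, all 20 differed in the same direction, with a list median of -2.39. Its arrays are among the 6 that gave the calls, so this is no separate check. Nr4a1, an orphan nuclear receptor, had a level of 5.85, 5.91 and 5.96 on the 2 h arrays and of 1.85, 1.77 and 1.82 on the 24 h arrays. All 3 arrays at 24 h sat next to the vehicle mean of 1.68. The level fell by 4.09 ± 0.07 (SE, n = 3 against 3), 17.1-fold, with adjusted p = 7.8e-05. Fos, a subunit of the transcription factor AP-1, stood at 2.26, 2.07 and 0.97 at 2 h and at -2.39, -3.25 and -2.71 at 24 h (vehicle mean -2.51). Again the groups were far apart, although BPA 2 h replicate 3 was lower than the others, and Fos fell by 4.56 ± 0.40 (adjusted p = 0.0015). Egr3, a zinc finger factor induced by growth factor signalling, was at 0.86, 0.48 and 0.72 at 2 h. At 24 h it was at -4.19, -3.89 and -4.04, a difference of -4.73 (-2.48 on its other probe). Ccn1 (formerly Cyr61), a secreted matrix protein, fell by the same 4.73, from 4.30, 4.42 and 3.65 to -0.35, -0.68 and -0.79. The neuronal activity genes Arc and Egr4, which belong to the same class but were not on the list, were among the 10 largest falls. Arc was at 3.01, 3.25 and 3.08 at 2 h and at -2.76, -2.95 and -3.04 at 24 h, below the vehicle mean of -1.91 (difference -6.03 ± 0.11, adjusted p = 7.8e-05). Egr4 fell by 7.29 ± 0.20, from between 0.64 and 0.97 to between -6.76 and -6.05 (vehicle mean -5.92), with 2 of the 3 late arrays above background. The other called members ran from Fosl1 (-3.56) and Atf3 (-3.08) to Jun (-1.12) and Ccn2 (-0.88), and only Klf6 (-0.18) was not called. Set against the vehicle mean, the 20 genes stood between 0.62 and 4.65 above it at 2 h and between -0.72 and 0.42 of it at 24 h.

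The stretches just before the start sites of Fos and Nr4a1 are shown because both belong to the list with the largest share of falls. They are the 150 bases before the start in RefSeq on GRCm38.p6, 5′ to 3′ on the strand of the gene, and capitals mark TGACG or its complement CGTCA, the core of the sites bound by CREB and ATF factors.
Fos, chr12:85473740-85473889, plus strand: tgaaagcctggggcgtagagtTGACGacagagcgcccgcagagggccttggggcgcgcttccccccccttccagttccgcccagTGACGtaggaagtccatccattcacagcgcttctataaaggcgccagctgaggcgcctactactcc
Nr4a1, chr15:101266696-101266845, plus strand: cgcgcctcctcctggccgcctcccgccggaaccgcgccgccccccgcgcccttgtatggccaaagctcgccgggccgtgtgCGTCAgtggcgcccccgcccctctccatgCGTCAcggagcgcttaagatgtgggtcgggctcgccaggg
Each stretch held 2 matches. Of the 20 genes that fell, 14 had a start site in the table, with 20 promoters in all. On either strand of the 250 bases before the start, TGACG was found in 13 of the 20 (65.0%), against 17.8% of all 32851 promoters in the table. The CArG box, the site of serum response factor, was in 5 of the 20, those of Egr2 and Zfp36, and in 1.5% of all promoters. A gene can enter with several promoters, as these 5 show, so the shares are of promoters and not of independent genes. The palindromic estrogen response element was in none of the 20, and in 0.1% of all promoters. A match describes the letters of the window and is not a measured site.

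Of 16 feedback inhibitors of growth factor signalling tested, 8 were lower and none was higher, with a median of -0.86. Errfi1, which blocks the EGF receptor, was at 4.90, 4.95 and 3.77 at 2 h and at 1.55, 1.64 and 1.45 at 24 h, against a vehicle mean of 1.72 (difference -2.99 ± 0.33, adjusted p = 0.0023). Its groups did not overlap, and the 24 h arrays lay slightly under the vehicle mean. Spry4 (-3.20), an inhibitor of the ERK pathway, Socs3 (-3.07), which limits cytokine receptors, and the ERK phosphatases Dusp1 (-2.67), Dusp2 (-2.14) and Dusp6 (-1.14) fell as well. Spry1, of the same family as Spry4, had the highest difference of the list, 0.79, and was not called.

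**Figure D1:**
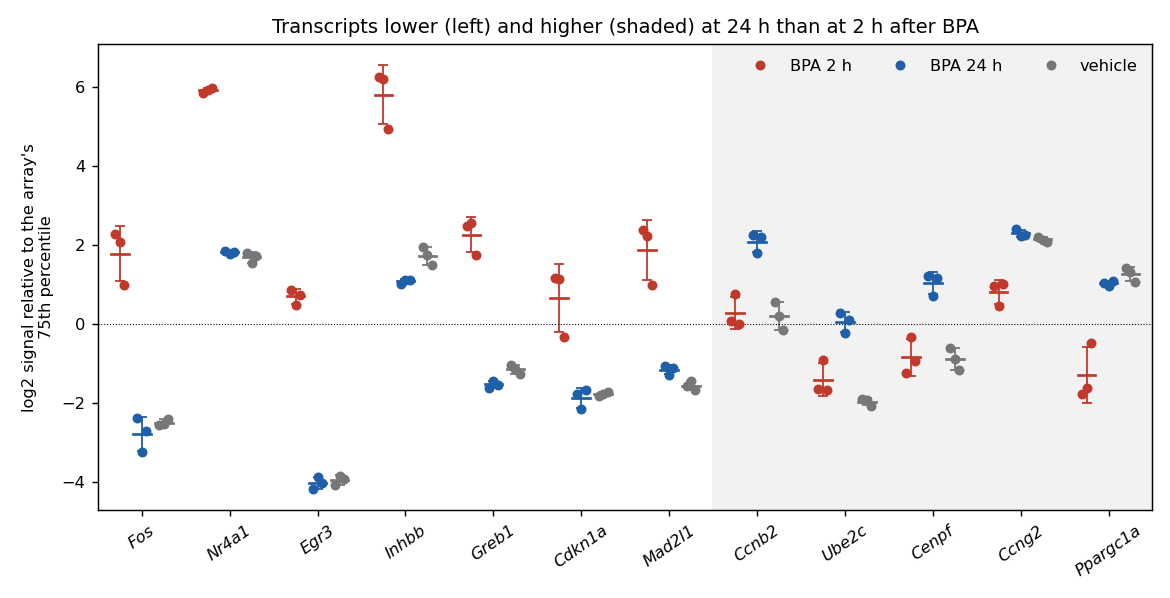
Levels of 12 transcripts on each BPA 2 h array (red), BPA 24 h array (blue) and vehicle array (grey), as log2 signal relative to the 75th percentile of the array. Horizontal bars are group means and vertical bars are 1 SD (n = 3). For the 7 transcripts on the left the 24 h arrays lie below the 2 h arrays and close to vehicle, and for the 5 in the shaded field they lie above. Ccnb2, Ube2c and Cenpf also stand above vehicle at 24 h.

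Secreted ligands split into 2 directions. Of 34 growth factors and morphogens tested, 9 were lower and 6 higher (26.5% and 17.6%, against 17.4% and 27.6% over all genes). The median was -0.06, close to that over all genes. Inhbb, the βB subunit of activin and inhibin, had the largest fall of the list, from 6.25, 6.20 and 4.94 to 1.01, 1.09 and 1.10. At 24 h it was below all vehicle arrays, whose mean was 1.72 (difference -4.73 ± 0.36, adjusted p = 0.0012). Gdf15, a stress-induced member of the TGF-β family, fell by 4.31. Wnt4, a Wnt ligand needed for the decidual response, fell by 3.53 ± 0.25, from 3.35, 3.49 and 2.62 to -0.55, -0.37 and -0.22, with a vehicle mean of 0.30. Vegfa (-3.12), which makes vessels grow and leak, the EGF receptor ligand Hbegf (-2.91), Wnt7b (-2.02), the vasodilator adrenomedullin Adm (-1.96) and Ihh (-1.48), which signals from epithelium to stroma, fell too. Igf1, a mitogen of stromal origin that relays estrogen action, differed by -0.51 and was not called. The ligands that rose were Btc (1.76), another EGF receptor ligand, the stromal factors Fgf7 (1.54) and Fgf10 (1.38), the lymphatic factor Vegfc (1.14), Bmp4 (0.96) and Egf (0.78). Fgf10 stood at -3.36, -3.11 and -2.89 at 2 h and at -1.71, -1.64 and -1.88 at 24 h, next to its vehicle mean of -1.67. All 6 ligands that rose were below the vehicle mean at 2 h, by between 0.81 (Bmp4) and 2.03 (Fgf7), and stood between -0.54 (Egf) and 0.22 (Vegfc) of it at 24 h. The call of Fgf7 was lost when replicate 1 of either time or replicate 3 at 24 h was left out.

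Receptors and binding proteins had 8 of 25 higher and 5 lower, shares near those over all genes, a median of 0.24, and between 3 (without BPA 24 h replicate 1) and 12 (without BPA 2 h replicate 3) higher when arrays were left out. Erbb3, the kinase-dead partner of the EGF receptor family, rose by 1.56, from -0.37, -0.07 and 0.29 to 1.54, 1.44 and 1.52. Of its 4 probes, 3 rose and the fourth differed by -0.42 and was not called. Pdgfra, the stromal PDGF receptor, rose by 0.84. Fgfr3 (-0.81) and the VEGF and semaphorin co-receptors Nrp2 (-0.78) and Nrp1 (-0.68) fell, as did Egfr itself (-0.39). Other probes of Nrp1 (-0.53 and -1.20) were not called.

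Among steroid receptors and their coregulators, 6 of 18 were lower and 5 higher (33.3% and 27.8%, against 17.4% and 27.6% over all genes). Greb1, a cofactor of estrogen receptor α read by a probe at chr12:16726515-16726574 (mm7), was at 2.47, 2.54 and 1.75 at 2 h and at -1.62, -1.45 and -1.55 at 24 h. No array of one time came near the other, and the 24 h arrays were under the vehicle mean of -1.16 (difference -3.79 ± 0.22, adjusted p = 0.00095). Pgr, the progesterone receptor, fell by 1.57 ± 0.10, from between -0.39 and -0.21 to between -1.94 and -1.70 (vehicle mean -1.89). The other probe of Pgr gave a larger difference, -4.30. The corepressor Nrip1 fell by 1.96. Fkbp5 (-1.52) and Fkbp4 (-0.94), chaperones of steroid receptors, fell as well. Esr1, which encodes estrogen receptor α, differed by 0.17 and was not called. Ppargc1a, the coactivator PGC-1α of mitochondrial genes, rose by 2.32 ± 0.35, from -1.79, -1.63 and -0.50 to 1.02, 0.95 and 1.08, still slightly under the vehicle mean of 1.25. The glucocorticoid receptor Nr3c1 (0.45) rose less. Cited2 (1.23) and Nr2f2 (1.33), a stromal regulator of implantation, also rose, but with calls that single arrays decided. Just 1 member was called higher when any one of the 24 h arrays was left out, and 3 were when BPA 2 h replicate 1 or 2 was.

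The list of transcripts known for their rise in the estrogen-treated uterus held 22 tested genes, of which 8 were lower at 24 h and 2 higher (median -0.28). The shares were 36.4% and 9.09%, against 17.4% and 27.6% over all genes. The water channels Aqp8 (-4.38) and Aqp5 (-3.74), Ramp3 (-3.76), a partner of the adrenomedullin receptor, the arginine deiminases Padi1 (-3.72) and Padi2 (-3.11), and creatine kinase Ckb (-1.14) fell together with Greb1 and Pgr. At 2 h these 8 stood 1.26 to 3.85 above the vehicle mean, and at 24 h between -0.76 and 0.12 of it. Muc1, the epithelial mucin, rose by 1.48 and was the gene farthest above vehicle at 24 h in this list, by 1.23. Clca1, a secreted regulator of chloride channels, rose by 1.78. The late secretory markers of the E2 response had small differences that were not called: Ltf (lactoferrin) -0.05, Lcn2 0.00 and Sprr1a 0.20. Of the 9 promoters found for the 8 genes that fell, none held the palindromic estrogen response element within 250 bases.

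The largest falls outside the immediate early class came from hair keratins and glandular kallikreins. Krt85, a type II hair keratin with its probe at chr15:101502722-101502781 (mm7), was at 3.25, 3.16 and 0.76 at 2 h and at -6.37, -6.38 and -4.26 at 24 h, against a vehicle mean of -8.30. Every 24 h array was far below the 2 h arrays but all stayed above vehicle (difference -8.06 ± 0.90, 267-fold, adjusted p = 0.0023). Krt87 (-7.11) and Krt86 (-7.06) fell in parallel. Klk1, the tissue kallikrein that releases kinins, and its relatives Klk1b24 (-6.34), Klk1b21 (-5.62), Klk1b5 (-5.58) and Klk1b27 (-5.57) fell by 5.56 to 6.34. Klk1b21 was above background on 1 and Klk1b27 on 2 of the 3 late arrays. Hair keratins and members of the Klk1 family are near-identical copies of each other, so a probe may read several of them and their values are uncertain as single genes. Klk1b5 was at 4.11, 4.40 and 3.02 at 2 h and at -0.89, -3.21 and -1.09 at 24 h, the widest spread at 24 h among the 10 largest falls. Ppp2r2c, a regulatory subunit of protein phosphatase 2A, and Stat5a, a signal transducer of prolactin and cytokines, were 2 further transcripts that the study had followed. Ppp2r2c fell by 3.74 ± 0.23, from 1.76, 2.14 and 1.30 to -2.19, -1.92 and -1.91 (vehicle mean -1.46). Stat5a fell by 1.89 ± 0.26, from 2.15, 2.49 and 1.48 to 0.17, 0.07 and 0.21, the vehicle level (0.23).

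Genes of G2 and mitosis were the list with the largest share of higher members. Of 40 tested, 38 were higher, 1 was lower and 1 was not called, with a median of 1.21. Without single arrays 30 to 38 were called higher, and the median stayed between 0.76 and 1.24 in the other fits and scalings. The slide with both times gave a list median of 1.22. Ccnb2, cyclin B2, was at 0.07, 0.74 and -0.02 at 2 h and at 2.25, 1.78 and 2.20 at 24 h, while vehicle had a mean of 0.20. All 24 h arrays were above all 2 h and vehicle arrays, and the 2 h arrays lay at the vehicle level (difference 1.81 ± 0.24, adjusted p = 0.0037). Ube2c, the ubiquitin-conjugating enzyme of the anaphase-promoting complex, stood at -1.65, -0.93 and -1.68 at 2 h and at 0.26, -0.23 and 0.08 at 24 h (1.45 ± 0.25, adjusted p = 0.0068, vehicle mean -1.98). Cdk1, the kinase that starts mitosis, rose by 1.04 ± 0.20, from -1.63, -0.96 and -1.42 to -0.08, -0.50 and -0.31, and Aurkb, a kinase of chromosome segregation, by 1.11 ± 0.23. In each of these transcripts BPA 2 h replicate 2 was the highest 2 h array and BPA 24 h replicate 2 the lowest 24 h array. The kinetochore protein Cenpf had the largest rise of the list, 1.87, from -1.25, -0.34 and -0.96 to 1.21, 0.70 and 1.15. Nusap1 (1.72), Cdc25c (1.72), Hmmr (1.70), Mki67 (1.28), the master transcription factor Foxm1 (1.19) and Top2a (0.95) rose with it. Relative to the vehicle mean, the 38 genes had a median of 0.30 at 2 h and of 1.57 at 24 h, when 37 of them were above it.

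Mad2l1, a spindle checkpoint protein (probe at chr6:66520777-66520836, mm7), was the exception. It stood at 2.36, 2.23 and 0.98 at 2 h and at -1.07, -1.30 and -1.13 at 24 h, with a vehicle mean of -1.58. The fall of 3.02 ± 0.38 (adjusted p = 0.003) appeared on both of its probes (-3.02 and -3.02) and ran against the other members. Pttg1, securin, differed by -0.02.

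Start-site stretches of Ccnb2, Ube2c and Cdk1 are printed because these transcripts were followed by the study and rose with the list. They are again 150 bases before the RefSeq start on GRCm38.p6. Capitals mark CCAAT (or ATTGG), the box bound by NF-Y, and TTTGAA (or TTCAAA), the core of the cell cycle homology region.
Ccnb2, chr9:70421555-70421704, minus strand: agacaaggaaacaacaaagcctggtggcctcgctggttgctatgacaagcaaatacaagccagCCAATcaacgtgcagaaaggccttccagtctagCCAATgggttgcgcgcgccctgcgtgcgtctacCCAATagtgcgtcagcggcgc
Ube2c, chr2:164769779-164769928, plus strand: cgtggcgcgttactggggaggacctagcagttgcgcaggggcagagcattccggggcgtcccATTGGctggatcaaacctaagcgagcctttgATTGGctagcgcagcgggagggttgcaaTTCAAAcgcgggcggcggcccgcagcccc
Cdk1, chr10:69352913-69353062, minus strand: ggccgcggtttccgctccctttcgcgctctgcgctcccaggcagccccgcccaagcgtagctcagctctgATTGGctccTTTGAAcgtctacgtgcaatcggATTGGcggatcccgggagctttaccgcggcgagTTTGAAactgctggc
Ccnb2 held 3 CCAAT boxes in this stretch, and Ube2c and Cdk1 held 2 each. Over 250 bases, 28 of the 34 promoters found for 32 of the 38 genes held CCAAT on either strand (82.4%, against 33.8% of all promoters) and 12 held TTTGAA (35.3%, against 16.0%). The contrast with the early genes was visible in the same counts, since CCAAT was in 7 of the 20 promoters of the immediate early genes and TGACG in 6 of the 34 mitotic ones (17.6%).

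Genes of DNA replication and the G1/S step had changed little between the times. Of 46 tested, 34 were not called, 8 were higher and 4 lower, shares of 17.4% and 8.70% that were both under those over all genes. The median of 0.07 turned to -0.10 without scaling and to -0.14 under spike-in scaling. Ccna2, cyclin A2, which also acts in mitosis, rose by 1.44 and thymidine kinase Tk1 by 1.11. Pcna, the sliding clamp of DNA polymerase, fell by 0.58, from 3.46, 3.67 and 3.50 to 3.02, 2.97 and 2.89, against a vehicle mean of 3.03. The helicase subunits Mcm4 (-0.53), Mcm2 (-0.55) and Mcm3 (-0.40) were lower as well. Leaving out arrays gave 4 to 10 higher and 2 to 5 lower, and the call of Mcm2 was lost when any of BPA 2 h replicate 2 and BPA 24 h replicates 1 and 3 was left out. The 8 higher became 4 or 5 without any one 24 h array.

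Cell cycle inhibitors went both ways. Of 20 tested, 9 were lower and 8 higher (45.0% and 40.0%, against 17.4% and 27.6% over all genes). The median of 0.02 turned to -0.15 without scaling, to -0.19 under spike-in scaling and to -0.01 with normexp correction. Gadd45g, a stress sensor that inhibits the G2 kinase, fell by 4.21 ± 0.50, from 7.42, 7.57 and 5.72 to 2.62, 2.76 and 2.69 (vehicle mean 3.07). Cdkn1a (p21), the CDK inhibitor induced by p53, fell by 2.53 ± 0.43, from 1.14, 1.14 and -0.34 to -1.79, -2.17 and -1.69 (vehicle mean -1.78). In both genes the groups were apart, with BPA 2 h replicate 3 the lowest early array. The antiproliferative Btg2 (-1.60) and Gadd45a (-1.40) fell as well. So did the antiproliferative Tob1 (-1.97), whose call was lost without any one array but BPA 2 h replicate 3. Those that rose included Ccng2 (1.48), the CDK4 and CDK6 inhibitors Cdkn2c (0.96) and Cdkn2b (0.87), Btg1 (0.93) and Cdkn1b (p27, 0.64). Ccng2 was at 0.94, 0.44 and 1.01 at 2 h and at 2.39, 2.21 and 2.25 at 24 h, near its vehicle mean of 2.13. Between 4 and 8 were lower when single arrays were left out, the fewest without BPA 2 h replicate 2 or BPA 24 h replicate 1.

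Ribosome biogenesis was the list with the largest share of lower members after the immediate early genes. Of 35 tested, 30 were lower and 1 was higher, with a median of -0.89 and 25 to 30 lower without single arrays. Rrp12, an assembly factor of pre-ribosomes, was at -1.55, -1.24 and -1.35 at 2 h and at -3.69, -3.37 and -3.74 at 24 h, below the vehicle mean of -3.24. Rrp12 fell by 2.22 ± 0.14 (adjusted p = 0.00095) and was followed by Rrs1 (-2.02), the helicase Ddx21 (-2.02), the nucleolar GTPase Gnl3 (-1.88), Nolc1 (-1.86) and Bysl (-1.81). Components of the box C/D particles fell less, Nop58 by 1.56, Nop56 by 1.41 and the methylase Fbl by 0.55. Npm1, the abundant nucleolar shuttle protein, was the member that rose, by 0.37, and its call was lost without BPA 24 h replicate 1. At 2 h the 30 genes were 0.01 to 1.86 above the vehicle mean, and at 24 h 26 of them were below it. In their promoters TGACG was in 12 of 29 (41.4%) and CCAAT in 5 (17.2%).

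Other lists of protein production had more lower than higher members too, with medians nearer to 0. Over all genes 17.4% were lower and 27.6% higher. For tRNA charging and amino acid supply, 18 of 38 were lower and 6 higher (median -0.28), led by Slc7a5 (-2.76), the large neutral amino acid transporter, and its regulator Atf4 (-1.99), which went from 2.43, 2.62 and 2.35 to 0.45, 0.44 and 0.53. Cytosolic and mitochondrial heat shock proteins had 13 of 19 lower and 1 higher (median -0.48), with Hsph1 at -2.02, Dnajb1 at -1.40 and Hspa1a at -1.13. Folding in the endoplasmic reticulum had 11 of 30 lower and 2 higher (median -0.28). Its chaperone Hspa5 (BiP) fell by 1.18, from 5.22, 5.25 and 4.91 to 3.97, 4.09 and 3.78, and Manf by 1.18. The proteasome had 11 of 32 lower and none higher (11 and 0 at an unadjusted p under 0.05). Both lists depended on single arrays. In the endoplasmic reticulum 4 members were lower without BPA 24 h replicate 1, 5 without replicate 3 and 7 without BPA 2 h replicate 2. In the proteasome 6 were lower without BPA 24 h replicate 3 and 7 without BPA 24 h replicate 1 or 2 or BPA 2 h replicate 2. Over all genes the share lower moved as well, between 11.9% and 18.5% without single arrays. Under spike-in scaling 20 proteasome subunits were lower, but lower calls over all probes also rose there, from 6077 to 9297. In the respiratory chain 8 of 33 were higher and 3 lower (24.2% and 9.09%, both under the shares over all genes), and 22 were not called. Cycs, cytochrome c, which carries electrons to complex IV, fell by 1.47 (3.70, 3.91 and 3.63 against 2.29, 2.36 and 2.19). Just 2 subunits were called higher without BPA 24 h replicate 1 or 3, 4 and 5 without BPA 2 h replicate 1 and 2, and the list median of 0.20 was -0.01 under spike-in scaling.

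**Figure D2:**
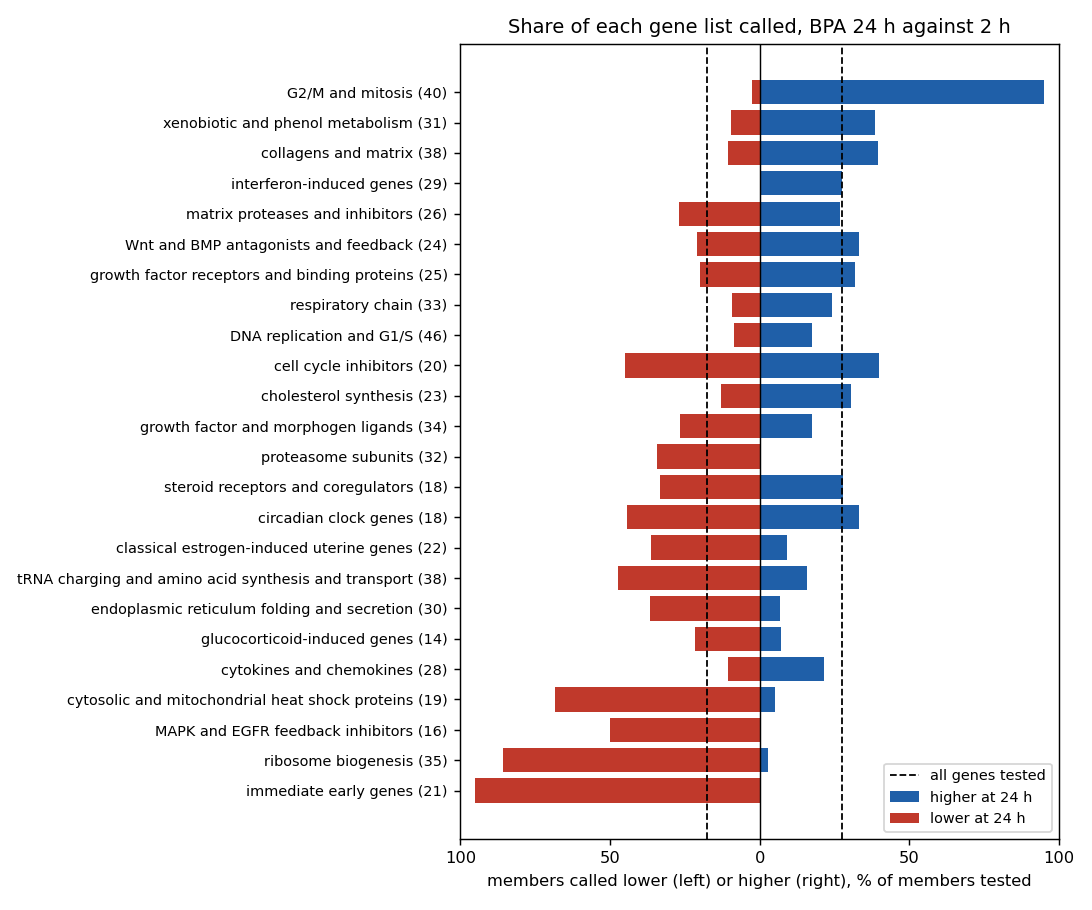
Share of the tested members of each of 24 gene lists that were lower (red, to the left) or higher (blue, to the right) at 24 h than at 2 h after BPA, in percent, with the number tested in parentheses. Dashed lines mark the shares over all 20596 genes, 17.4% lower and 27.6% higher. G2 and mitosis has 38 of 40 members higher, and the immediate early genes have 95.2% lower.

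Of 38 collagens and other matrix genes tested, 15 were higher and 4 lower (39.5% and 10.5%, against 27.6% and 17.4% over all genes). The median was 0.40. Without scaling 5 were higher and 6 lower, and under spike-in scaling 6 and 6. Biglycan (Bgn, 1.30), lumican (Lum, 1.11), which orders collagen fibrils, the cross-linking enzyme Lox (1.09), Col5a2 (1.02) and fibronectin Fn1 (0.93) rose. Lum was at 5.08, 5.04 and 5.52 at 2 h and at 6.52, 6.06 and 6.38 at 24 h, above its vehicle mean of 5.80. The main fibrillar collagen Col1a1 had a difference of 1.40 and was not called. Col3a1 (1.38) was called although its arrays overlapped between the times, and lost the call without most single arrays. Fbln2 (-0.89) and Col6a3 (-0.99) fell, and the prolyl hydroxylase P4ha2 fell by 2.71, a call that held only with all arrays or without BPA 2 h replicate 3. Just 4 members were called higher without BPA 24 h replicate 1 or 3, 5 or 6 without BPA 2 h replicate 2 or 1, 5 without scaling and 6 under spike-in scaling. The calls of Bgn and Mmp9 were lost with the slide as a fixed block. Matrix proteases and their inhibitors were 7 higher and 7 lower of 26 (26.9% each, against 27.6% higher and 17.4% lower over all genes). Adamts4 (-4.40) and Adamts1 (-2.58), proteases of proteoglycans, and the urokinase receptor Plaur (-2.12) fell. Adamts1 went from 4.20, 4.36 and 3.88 to 1.69, 1.56 and 1.46. Adamts5 (1.35) and Mmp9 (1.11) rose.

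The 10 largest falls stood 4.31 to 10.7 above the vehicle mean at 2 h and between -1.94 and 2.62 of it at 24 h. The 10 largest rises differed from them in direction. They ended at 24 h within -0.37 to 0.87 of the vehicle mean. Those measured on every 2 h array stood below it there, by 3.54 for Pik3ip1, 3.45 for Ptgfr and 2.60 for Trpv6. Pik3ip1, an inhibitor of phosphoinositide 3-kinase with its probe at chr11:3285674-3285733 (mm7), was at -3.15, -3.84 and -1.31 at 2 h and at 0.96, 0.91 and 1.02 at 24 h, with vehicle at 0.77. Its rise of 3.73 ± 0.63 (13.3-fold, adjusted p = 0.0067) was the largest, and its other probe rose by 2.27. Ptgfr, the receptor of prostaglandin F2α that drives uterine contraction, was at -4.42, -4.36 and -1.79 and then at 0.12, -0.17 and -0.11 (vehicle mean -0.07). It rose by 3.47 ± 0.73 (adjusted p = 0.013), with 2.92 on its other probe, and BPA 2 h replicate 3 was far closer to the late arrays than the other early ones in both genes. Hcar1, the lactate receptor, which 2 of the 3 early arrays had above background, went from -6.93, -7.55 and -4.70 to -2.73, -2.84 and -2.64. The amino acid carrier Slc38a11 (3.64, above background on 1 of the 3 early arrays) and the ubiquitin ligase Rnf186 (3.66, on 2 of 3) rose as well, although the call of Rnf186 was lost without BPA 24 h replicate 1. Trpv6, an epithelial calcium channel, was the farthest above the vehicle mean at 24 h of these 10, by 0.87: -4.72, -4.28 and -3.61 at 2 h, -0.65, -0.96 and -0.61 at 24 h, and a vehicle mean of -1.61 (rise 3.46 ± 0.29, adjusted p = 0.0014). Jakmip2, the ion channel Trpm3, the transporter Slco4c1 and Pabpc4l were not well above background on any 2 h array, so their rises are bounds: at least 5.83-fold, 8.14-fold, 4.27-fold and 3.08-fold higher at 24 h, computed against the dimmest signal well above background on each 2 h array. The other probes of Jakmip2 (1.01, not called) and Trpm3 (0.99 and 0.17) gave smaller values. Over the whole array, 107 probes were well above background on all 24 h arrays and on no 2 h array, and 86 showed the reverse. Of these, 105 and 71 were called. They were picked for being detected at a single time and passed the filter through that time. A call is therefore favoured among them, and the counts are no separate result.

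Inflammatory and metabolic lists gave mixed counts, to be read against 27.6% higher and 17.4% lower over all genes. Among interferon-induced genes 8 of 29 were higher and none lower, 27.6% as over all genes, and 10 and 1 at an unadjusted p under 0.05 by limma. The antiviral effectors Ifit3 (1.44), Rsad2 (1.28), Mx2 (0.85) and the GTPase Gbp3 (0.74) rose, and the call of Ifit3 was lost without BPA 24 h replicate 2 or 3, when the list had 4 higher members. Of 28 cytokines and chemokines, 6 were higher and 3 lower (21.4% and 10.7%, both under the shares over all genes). The prostaglandin E synthase Ptges, which makes prostaglandin E2 from the product of the cyclooxygenases, fell by 3.71, from 2.22, 2.19 and 0.66 to -1.99, -2.13 and -1.94, while Ptgs2 (-0.37, above background on 2 of the 3 late arrays) was not called. The neutrophil chemokine Cxcl1 fell by 1.03 and its relative Cxcl5 rose by 1.79, and both calls were lost with the scan day or the slide as a fixed block. Circadian clock genes were 8 lower and 6 higher of 18. The repressor Nfil3 (-2.94), Bhlhe40 (-1.13), Cry1 (-0.93) and Per2 (-0.89) fell, and Per3 rose by 1.44, from -2.93, -3.10 and -2.53 to -1.42, -1.44 and -1.38. Per1 differed by -0.52 (adjusted p = 0.22), with 1.72, 1.59 and 2.71 at 2 h against 1.62, 1.49 and 1.34 at 24 h. Of 14 glucocorticoid-induced genes, 3 were lower, Errfi1, the ion transport kinase Sgk1 and Fkbp5, and 1 was higher, Klf15 (1.30). Xenobiotic and phenol metabolism had 12 of 31 higher and 3 lower, with 9 to 16 higher without single arrays. The sulfotransferase Sult1c2 (1.89), Gsta3 (1.47) and the quinone reductase Nqo1 (1.15) rose, and Gsta2 (-1.65), Gsta1 (-1.59) and Txnrd1 (-0.55) fell. The glutathione transferases are near-identical copies, so Gsta1 and Gsta2 may share signal. Of 24 Wnt and BMP antagonists and targets, 8 were higher and 5 lower (33.3% and 20.8%, near the shares over all genes). Id1 (-1.58), Axin2 (-1.47), the standard readout of Wnt signalling, and Smad7 (-1.10), which blocks TGF-β receptors, fell, and the antagonists Nkd2 (1.42) and Dkk2 (1.40) rose. Axin1, the scaffold of the same complex as Axin2, fell by 0.54. Cholesterol synthesis was 7 higher and 3 lower of 23 (30.4% and 13.0%, near the shares over all genes, with a median of -0.03). The mevalonate pathway kinases Mvk (0.84) and Pmvk (0.88) rose. Of the transcripts the study had followed, Sox8 (0.13) and the vault protein Mvp (0.12) were not called, and the signs of both turned negative without scaling and under spike-in scaling. The other probe of Sox8 differed by -1.23, with the opposite sign, and was not called either.

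Summed levels of marker genes of resident cell types of the uterus were higher at 24 h relative to the 75th percentile, and in whole tissue a change in the number of cells and one in the RNA per cell cannot be told apart. The summed level of 19 epithelial markers was 128 to 182 times the 75th percentile at 2 h and 242 to 248 at 24 h, with vehicle in between at 199 to 208. For 13 stromal markers the sum was 281 to 356 and then 445 to 485 (vehicle 375 to 414), for 13 endothelial markers 47.0 to 53.5 and then 66.3 to 69.5 (vehicle 57.9 to 63.4), and for 14 smooth muscle markers 621 to 766 and then 808 to 951 (vehicle 714 to 782). In these 4 lists the groups did not overlap in this scaling, whereas the smooth muscle sums overlapped without scaling and under spike-in scaling and the others did not. In units of the 75th percentile, the 2 h arrays of epithelium, stroma and endothelium were all below vehicle. A sum weighs bright markers most. At 24 h the median level of the 13 stromal markers, 3.37 to 3.60, was below that of vehicle, 3.70 to 3.96, although their sum was above. Of these markers, 7 stood above the vehicle mean at 24 h and 6 below. Single markers moved by modest amounts, with a median of 0.56 in epithelium (10 of 19 higher, 2 lower), 0.84 in stroma (8 of 13 higher), 0.41 in endothelium (7 of 13 higher, 1 lower) and 0.33 in smooth muscle (2 of 14 higher, 1 lower, a smaller share higher than the 27.6% over all genes). Epithelial Muc1, Ehf (1.19), Krt18 (1.01) and Krt8 (0.89), stromal Lum and vimentin Vim (1.01), and endothelial Cldn5 (1.05) and Tek (0.64) rose. Epithelial Elf3 (-0.71) and Krt7 (-0.50) and endothelial Eng (-0.52) fell, each with a call that was lost without single arrays. The number of epithelial markers called higher fell to 5 without BPA 24 h replicate 1 or 3 and to 6 without replicate 2, and that of stromal markers to 5 without BPA 24 h replicate 2. All 59 markers of these 4 lists were well above background on all 6 arrays. How far the shift in these markers takes part in the changes of matrix and other genes was not tested.

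Markers of immune and foreign cells were summed in the same way. The summed level of 14 lymphocyte markers was 10.0 to 65.7 at 2 h and 12.3 to 46.7 at 24 h, against 7.18 to 9.59 in vehicle, and none of the 14 was called by limma, nor had any an unadjusted p under 0.05. Macrophage markers summed to 125 to 254 and 164 to 175 (vehicle 101 to 112), with Mrc1 (0.69) the only one of 10 called. Of the neutrophil, lymph node, adipocyte and liver markers 0 were called by limma, with 1, 3, 0 and 1 at an unadjusted p under 0.05. Adipocyte markers summed to 25.3 to 70.6 at 2 h and 49.5 to 63.4 at 24 h. Transcripts of maturing sperm cells, foreign to a uterus, were on these arrays at sums of 8.74 to 17.0 at 2 h and 4.80 to 8.25 at 24 h, and of the 11 that could be tested 7 were lower at 24 h (median -1.04). No more than 1 of them kept a call when replicate 1 or 2 of either time was left out. On the vehicle arrays the same sum was 39.8 to 134, so the vehicle level is no reference for these transcripts. Skeletal muscle markers had 4 of 6 higher, at sums of 5.66 to 8.06 and 9.26 to 12.9. Elane, Ucp1, Cela2a, Pnlip, Apoa1, Apob, Cps1, Fga, Ttr and Pvalb were above background on none of the 6 arrays.

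**Figure D3:**
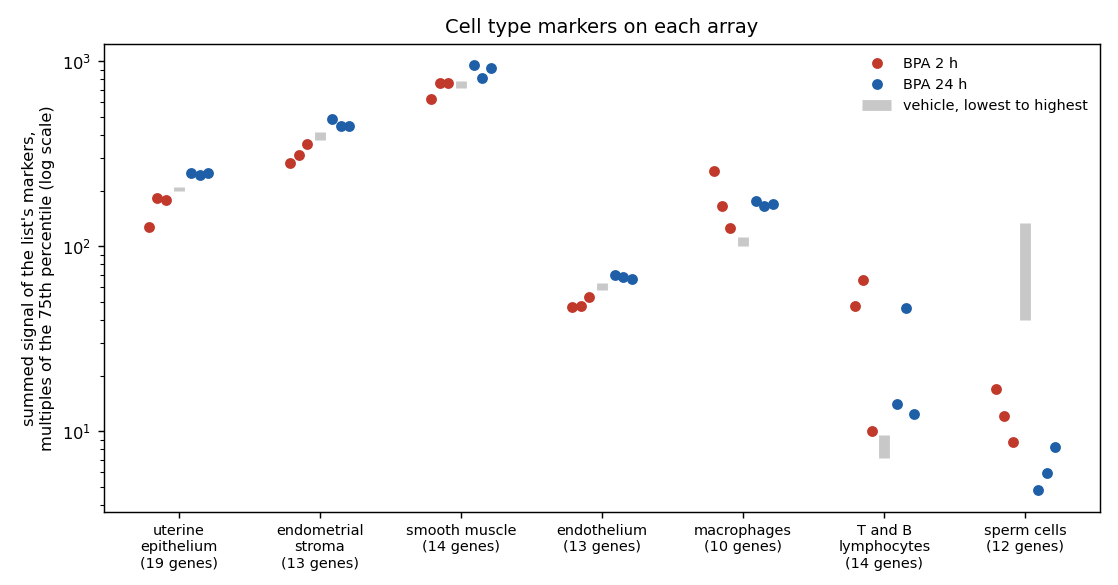
Summed signal of the markers of 7 cell types on each BPA 2 h array (red) and BPA 24 h array (blue), in multiples of the 75th percentile of the array on a log scale, with grey bars from the lowest to the highest vehicle array. In these units the epithelial, stromal, smooth muscle and endothelial sums are higher on all 24 h arrays than on all 2 h arrays, which without scaling did not hold for smooth muscle. Macrophage and lymphocyte sums overlap, and the sperm cell sums of the BPA arrays lie below vehicle at both times.

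The change over time was set against that of the other compounds by an interaction term in a model over all 7 groups of the series, and is called the step here. HPTE, given at the same dose, is like BPA a bisphenol, in which the carbon bridging the rings carries a trichloromethyl group where that of BPA carries methyl groups. Its step differed from that of BPA for 27 probes (0.0865%, 13 higher and 14 lower after BPA, and 4680 at an unadjusted p under 0.05). By limma the count was 0 without scaling and 0 under spike-in scaling (2809 and 1827 unadjusted), and 33 with quantile normalization. Single arrays decided it as well. It was 477 without BPA 2 h replicate 3 and 69 without BPA 2 h replicate 2, 10 and 4 without BPA 24 h replicates 1 and 3, and 0 without BPA 24 h replicate 2 (3590 unadjusted). It was 0 when HPTE 2 h lacked replicate 1 or replicate 2 (3797 and 3867 unadjusted), and 1, 4 and 5 when HPTE 24 h lacked replicates 1, 2 and 3. A low count does not show that the compounds acted alike. Vcam1, an adhesion molecule of stroma and activated endothelium, rose by 0.73 after BPA and by 2.05 after HPTE, a difference of -1.32 ± 0.19 (adjusted p = 0.024). Cenpa, the centromeric histone, rose by 1.24 and 2.59 (-1.35 ± 0.23, adjusted p = 0.034). Fdps, a step of cholesterol synthesis, had steps of 0.21 and 1.39 (-1.17 ± 0.20), and Crtac1, a cartilage matrix protein, -0.32 and 1.89 (-2.22 ± 0.28), with -0.54 and 2.20 on another probe. In the other direction, Ppp1r3c, which targets phosphatase to glycogen, had steps of 0.03 and -1.13, and Usp2, a clock-regulated deubiquitinase, of 0.10 and -0.72. Cenpa was the only called member of the list of G2 and mitosis, but the median step of the 40 mitotic genes was 1.21 after BPA and 2.16 after HPTE, while that of the immediate early genes was -2.42 and -2.58 and that of ribosome biogenesis -0.89 and -0.68. Differences that were not called could still be wide, as for Ccnb2, with a difference of -1.29 ± 0.31 (adjusted p = 0.089).

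Against E2 the step differed for 16416 probes (52.6%, 9339 higher and 7077 lower after BPA). The doses differ, 750 µg and 250 ng, and E2 has 2 arrays at 24 h. For its E2 profiles the paper describes injection into the peritoneum in saline, so route and vehicle may differ from those of BPA as well. The values are those of these treatments, and dose, route and vehicle cannot be told apart from the compound. Calls numbered 13758 without scaling, 6028 under spike-in scaling and 14159 to 16884 when single arrays were left out. Lower calls outnumbered higher ones without scaling (9877 against 3881) and under spike-in scaling (3841 against 2187). All 32 proteasome subunits were below E2 (25 with spike-in scaling), as were 43 of 46 genes of DNA replication (34), 33 of 35 of ribosome biogenesis (31), 21 of 23 of cholesterol synthesis (16) and 36 of 40 of G2 and mitosis (29). Other lists kept fewer under spike-in scaling, as did the respiratory chain with 29 of 33 below E2 and then 15. Ribosome biogenesis had a median step of -0.89 after BPA and of 0.48 after E2, and Rrp12 of -2.22 and 1.46 (adjusted p = 5.5e-07). DNA replication had medians of 0.07 and 1.46. Of the 22 classical estrogen-induced genes, 20 were below E2 and 18 still were under spike-in scaling. The E2 step of their secretory members was 3.43 for Ltf, 4.59 for Lcn2 and 6.19 for Sprr1a, where that of BPA was -0.05, 0.00 and 0.20. In the mitotic list the direction was shared, with medians of 1.21 and 2.61. Mad2l1 was an exception here also, falling by 3.02 after BPA against a step of -0.78 after E2. The immediate early genes had like medians, -2.42 and -2.51, with 9 members above and 5 below E2, and Fos was not called (difference 0.37 ± 0.42, adjusted p = 0.50). Clock genes went the other way, 12 of 18 above E2 and none below, 10 above and 2 below without scaling, and 6 above and none below under spike-in scaling. The BPA arrays enter both comparisons, so the HPTE and E2 results are not independent of each other.

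**Figure D4:**
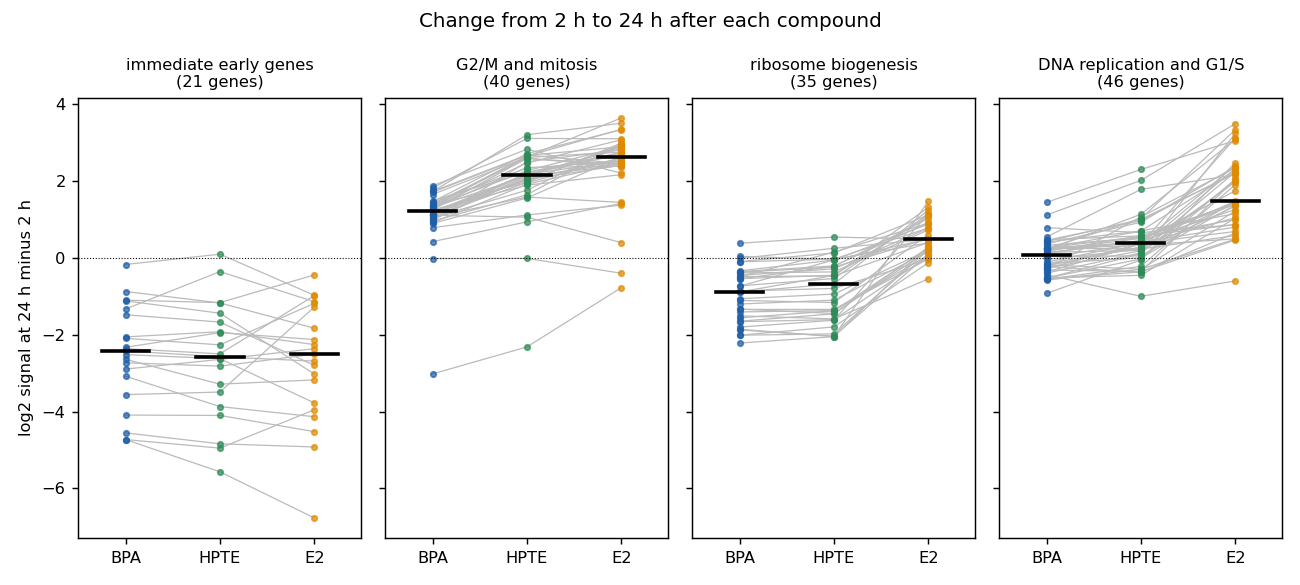
Change from 2 h to 24 h (log2 signal at 24 h minus 2 h) of each member of 4 gene lists after BPA, HPTE and E2, with grey lines joining the same gene and black bars at the list median. Immediate early genes have medians of -2.42, -2.58 and -2.51, mitotic genes 1.21, 2.16 and 2.61, ribosome biogenesis -0.89, -0.68 and 0.48, and DNA replication 0.07, 0.37 and 1.46.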

How the data were processed

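RNA, of single uteri according to the labels, was labelled with Cy3 and hybridized to one-colour Agilent whole mouse genome arrays of 45018 spots (1639 controls, 41174 other probes). Per the file headers, the authors obtained processed signal intensities with Agilent Feature Extraction 9.5, which subtracted background and detrended within each array, with no scaling between arrays. Probe positions are those of the deposited files (mm7). The flags for control, outlier and background spots were used as deposited. The series value table holds the same intensities and was not used further.

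Spots of a probe were averaged without outliers, and log2 of the deposited intensity minus the log2 75th percentile of the array was analysed. A probe counted as well above background when the majority of its spots were flagged so, which held for 76.7% to 80.1% of spots on the 2 h arrays and 73.1% to 81.7% on the 24 h arrays. The number of arrays limits the precision. The 6 BPA arrays were fitted with limma 3.58.1 (R 4.3.3) and Benjamini-Hochberg adjustment at 0.05. The interactions, and the fits with slide or scan day as a block, came from a means model over 7 groups and 20 arrays. In simulated data, 67, 67 and 66 of 31229 probes were changed by 0.5, 1 and 2 on the log2 scale. The fit of 24 h against 2 h recovered 5.97%, 53.7% and 86.4% of them. In the real arrays 45.2% of probes were called, so the adjustment is less strict there and these shares do not measure its sensitivity. An exact permutation test of 3 against 3 arrays cannot go below p = 0.1.

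Names came from the probe's accession for 22944 probes, the symbol for 6664 and a synonym for 3108, through RefSeq, and 8458 kept the array's name. The text names the 10 largest rises and falls among called probes with groups apart, up to 3 called members per direction of each of 24 lists (2 for 14 cell type lists), and 19 transcripts the study followed, plus further members for context chosen after their values were seen. A gene in a list is represented by its brightest probe. Members and lists were chosen with earlier results of these data known. Replicate numbers do not pair the arrays: deviations of same-numbered arrays correlated with r of -0.08, 0.34 and 0.23. Alternatives covered the scaling, background, filter, blocks, weights and each array left out. The methods describe pooled tissue and 2-colour arrays for part of the work. The files are of one-colour arrays and the labels name single uteri, and files and labels were followed. Some named genes that the rule would give are not reported here.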

Additional observations from a re-analysis of the deposited data

Results flagged for a closer look

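In 31 transcripts the change over time after BPA was unlike that after E2, by the interaction term of the 7-group limma model. They come from the 10 largest rises, the 10 largest falls and the 19 transcripts the study followed. Over all probes tested, 52.6% were called in this contrast. The largest rises and falls were chosen by the BPA step, which enters the difference, so a difference from E2 is favoured among them. The values given are the BPA step minus the E2 step, on the log2 scale.

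Transcripts that rose after BPA gave Pik3ip1 4.23, Jakmip2 2.32, Hcar1 4.02, Slc38a11 1.83, Trpm3 6.04, Slco4c1 3.16, Pabpc4l 2.59 and Ptgfr 2.56. Jakmip2, Trpm3, Slco4c1 and Pabpc4l were not well above background on any BPA 2 h array, so their values are not measured sizes. Hair keratins and kallikreins had fallen further after BPA, with Krt85 at -6.23, Krt87 at -4.39, Krt86 at -4.33, Klk1b24 at -5.06, Klk1b21 at -5.25, Klk1b5 at -3.9 and Klk1b27 at -3.94. Among early transcripts, Egr4 was at 2.11, Errfi1 at 0.861, Nr4a1 at 0.431, Ccn1 at -0.774, Inhbb at -1.6 and Stat5a at -1.07. The mitotic transcripts were all on the negative side, with Ube2c at -1.87, Ccnb2 at -1.28, Cdk1 at -1.9, Aurkb at -1.63 and Mad2l1 at -2.24. The others were Ppp2r2c (-4.15), Sox8 (1.64), Per1 (1.38), Mvp (-0.772) and Axin1 (-0.482). The value of Sox8 is that of its brightest probe, and its other probe had the opposite sign over time after BPA.

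For 8 of the 31 the call was lost under another scaling. Without scaling, Slc38a11 (adjusted p = 0.11), Errfi1 (0.38) and Nr4a1 (difference -0.0011) were not called. Under spike-in scaling these and Sox8, Ccn1, Axin1, Per1 and Mvp were not called, with adjusted p between 0.057 and 0.88. The groups hold 3 arrays or fewer, too few for a test of single outlying arrays.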

How the results depend on the processing

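Of 166 named genes that were called, 126 kept the call without each array in turn and 120 under every other fit, so 40 lost it without at least 1 array. The count of probes changed with the threshold, to 3728 (2158 higher, 1570 lower) at 2-fold or more and to 4619 (2190 higher, 2429 lower) at the unadjusted p under 0.001 and signal over 100 that the methods name. Scaling moved the direction. Higher calls numbered 5168 without scaling and 4611 under spike-in scaling, where lower calls numbered 9297. Without single arrays, 9068 to 15352 probes were called, 4857 to 9048 higher and 4211 to 6304 lower, with the fewest without BPA 24 h replicate 1 and the most without BPA 2 h replicate 3. With the replicate block 11303 probes were called (6359 higher, 4944 lower), although the numbers mark no pairs. The HPTE interaction gave 0 calls by limma without scaling and 0 under spike-in scaling (2809 and 1827 at an unadjusted p under 0.05), and 0 to 477 without single arrays. The E2 interaction gave 6028 under spike-in scaling and 14159 to 16884 without single arrays. Sox8 turned to -0.0438 without scaling, -0.0802 under spike-in scaling and -0.00141 with normexp, and ranged from -0.0909 to 0.386 without single arrays. Mvp turned to -0.0521 without scaling, to -0.0885 under spike-in scaling and to -0.0322 with the slide as a fixed block. Neither was called. The causes were not tested.

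List medians that changed sign under another scaling were those of DNA replication, cell cycle inhibitors, the respiratory chain (0.20, and -0.01 under spike-in scaling) and macrophage markers (0.14, and -0.03 without scaling and -0.07 under spike-in scaling). Counts of several further lists depended on single arrays: growth factor ligands had 10 higher without BPA 2 h replicate 3, amino acid genes 3 higher without BPA 24 h replicate 1 or 3, cytokines 9 lower without BPA 2 h replicate 3, Wnt and BMP feedback genes 3 or 4 higher without any one array but BPA 2 h replicate 3 (11 without that one), clock genes 2 higher without BPA 24 h replicate 1 and 3 without replicate 2 of either time, cholesterol synthesis 8 lower without BPA 2 h replicate 1, and endothelial markers 11 higher without BPA 2 h replicate 3. Probes of low signal limit the bounds given for transcripts that were not well above background at 2 h.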
